A study of Rattus norvegicus with 6 samples.

Results

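The genes described here are 36 listed members of glycolysis and of the response to low oxygen, and 31 of them had a tested row in the authors' gene table, out of 11778 symbols with a tested row. Members were found by their symbol, and where a symbol had several rows the longest locus was taken. For 7 members (Bnip3l, Egln2, Eno1, Hk2, Ldha, Mxi1 and P4ha2) several rows shared that length, and the row with the highest mean level was used. The rows of Hk1, Pgk1, Pkm, Slc16a3, Adm and P4ha1 span much less than the RefSeq gene, so their levels may not cover the whole gene. The 31 comprise 13 of 16 glycolytic enzymes, 16 of 18 other targets of the hypoxia-inducible factor HIF, and the oxygen-sensing genes Hif1a and Egln2. Aldoc, Tpi1, Gapdh, Egln1 and Ankrd37 were not analysed here.

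The cells were RUCA-I, an epithelial line from a rat endometrial adenocarcinoma of the Lewis strain, grown untreated in plastic flasks to 90% confluence in medium with 10% foetal calf serum. The miR-203 KO group (genotype miR-203 -/-) held 3 independently made knockout lines, and the WT group (wild type) held 3 batches of unmodified cells. Lines were thus set against batches, so the lost microRNA and differences between lines cannot be told apart. How the lines were edited is not given in the sources used here. RNA was sequenced from strand-specific libraries of total RNA.

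The authors gave 1 FPKM value per gene row and group, pooled over the 3 samples. FPKM counts fragments scaled by transcript length and library size, so levels of different genes can be set side by side. No SD or sample value stands behind a level, and the read depth is unknown. The only test against the spread between samples is the authors' own Cuffdiff test. A gene is said to have fallen or risen only where its q-value, the p-value adjusted over all 26459 tested rows, was under 0.05 in the authors' deposited table. Among 1-row-per-symbol features, 1.93% were called in either direction, 1.08% lower and 0.849% higher in KO cells. Of the epithelial markers, 5 of 6 were measured, none was called, and they summed to 1153 FPKM in KO and 1173 FPKM in WT cells. They were Krt8 (241 FPKM in KO, 203.7 FPKM in WT cells), Krt18 (121 FPKM in KO, 103 FPKM in WT cells), Epcam (419 FPKM in KO, 501 FPKM in WT cells), Cdh1 (144 FPKM in KO, 152 FPKM in WT cells) and Cldn4 (228 FPKM in KO, 213 FPKM in WT cells). No endothelial or leukocyte marker had a tested row, and Col1a1, 1 of 5 fibroblast markers, stood at 1.17 FPKM in KO and 1.43 FPKM in WT cells. A missing row does not show that a gene is silent, since Gapdh, Tpi1 and the epithelial marker Krt19 had none either.

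Glycolysis splits glucose into pyruvate in the cytosol, and much of that pyruvate becomes lactate in tumour cells even when oxygen is present. HIF is a transcription factor whose alpha subunit is hydroxylated by prolyl hydroxylases and destroyed while oxygen is plentiful. When oxygen falls, HIF binds a short core motif in DNA and induces glycolytic enzymes together with genes of glucose and lactate transport, blood vessel growth, mitophagy and collagen modification. The microRNA deleted in the KO lines is known from stratified epithelium and pairs with its targets through its seed, bases 2 to 8. Both mature strands of rat Mir203, from RefSeq on GRCr8 (chr6, plus strand), are shown with the seed in capitals because they are what the KO lines are meant to lack.
rno-miR-203a-3p: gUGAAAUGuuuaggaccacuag
rno-miR-203a-5p: aGUGGUUCuuaacaguucaac
The microRNA itself was not analysed here, and its loss is taken from the genotype given for the samples.

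Across the 31 measured members, 2 fell in KO cells, none rose and 29 did not pass. Both calls were HIF targets outside the enzymes, namely Slc16a3, which exports lactate, and Vegfa, which drives the growth of blood vessels. The share of members called was 6.45%, beside the 1.93% of all features given above. Members were chosen with earlier results of these data known, so that share is not independent of the calls. At an unadjusted p under 0.05 there were 4 members, Slc16a3, Vegfa, Hk2 and Slc16a1, each lower in KO cells; 9.2% of all features passed that level, 4.58% of all being lower in KO cells. Among members that did not pass, the ratio of KO to WT FPKM lay between 0.786 for Hk2 and 1.22 for Egln3.

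**Figure D1:**
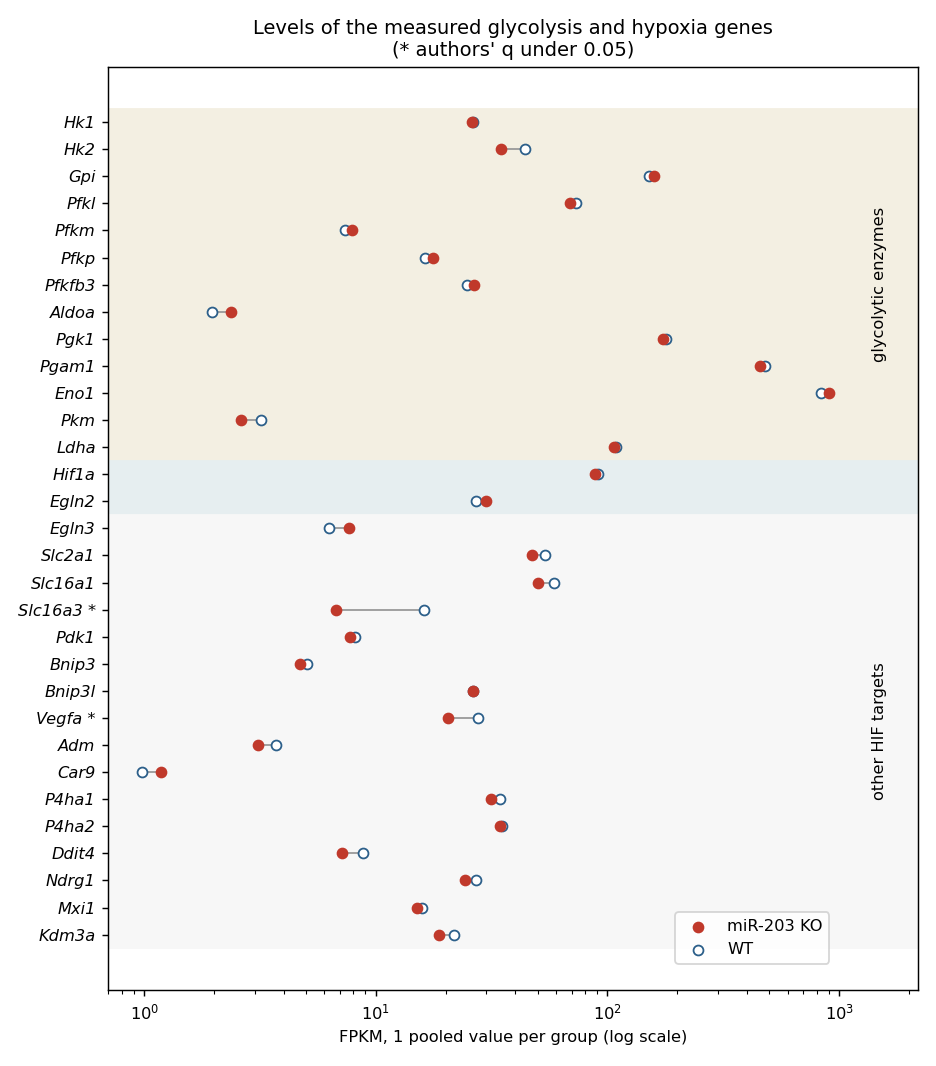
FPKM of the 31 measured members in miR-203 KO cells (filled red) and WT cells (open blue), 1 pooled value per group on a log axis, grouped as enzymes, oxygen sensing (Hif1a and Egln2) and other HIF targets. Most pairs nearly coincide; Slc16a3 (6.73 FPKM in KO, 16.1 FPKM in WT cells) has the widest gap, followed on this scale by Vegfa (20.5 and 27.6 FPKM).

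Glucose enters the pathway through the hexokinases, which phosphorylate it. Hk2, the inducible hexokinase, stood at 34.6 FPKM in KO and 44.1 FPKM in WT cells, where the authors' deposited table gave p = 0.01345 and q = 0.480. Hk1, the housekeeping hexokinase, stood at 26.0 FPKM in KO and 26.1 FPKM in WT cells. The row of Hk1 spans 19546 bp, while its RefSeq gene spans 101593 bp on GRCr8, so the pair is not ranked. The difference in Hk2 did not pass the test, and its value rests on the tie rule: with ties broken by file order Hk2 was read from another row, at 1.01 FPKM in KO and 0.969 FPKM in WT cells.

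In the upper part of the pathway, Gpi, which turns glucose 6-phosphate into fructose 6-phosphate, stood at 158.8 FPKM in KO and 151.3 FPKM in WT cells. The phosphofructokinases catalyse the committed step and come as liver, muscle and platelet isozymes. Pfkl, the liver type, stood at 69.0 FPKM in KO and 72.9 FPKM in WT cells. Pfkp, the platelet type, stood at 17.6 FPKM in KO and 16.3 FPKM in WT cells. Pfkm, the muscle type, stood at 7.85 FPKM in KO and 7.32 FPKM in WT cells. The liver isozyme led in both groups, with 73.0% of the summed phosphofructokinase FPKM in KO and 75.5% in WT cells. Pfkfb3, which makes the allosteric activator fructose 2,6-bisphosphate, stood at 26.6 FPKM in KO and 24.6 FPKM in WT cells. None of these 5 genes passed, and the authors' deposited table gave each q = 0.997.

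Aldoa, the aldolase that splits fructose 1,6-bisphosphate, was listed at only 2.37 FPKM in KO and 1.96 FPKM in WT cells. That is far below the level of Gpi, earlier in the pathway. A row named Aldoart2, the symbol of an aldolase A retrogene, was listed at 769 FPKM in KO and 767 FPKM in WT cells on a locus of 123 bp on chromosome 6 (76350190 to 76350313, rn6); it was chosen after its values were seen. Reads of near-identical copies can be divided between them, and their part in the level of Aldoa was not tested.

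The later steps of glycolysis, which yield ATP and pyruvate, held the most abundant members. Eno1, enolase, was the highest of all 31, with 902 FPKM in KO and 834 FPKM in WT cells. Pgam1, phosphoglycerate mutase, stood at 454.5 FPKM in KO and 479 FPKM in WT cells. Pgk1, phosphoglycerate kinase, stood at 173 FPKM in KO and 179 FPKM in WT cells. Eno1 was listed slightly higher and the other enzymes slightly lower in KO cells, and none of the 3 passed. Pkm, pyruvate kinase, was listed at 2.62 FPKM in KO and 3.20 FPKM in WT cells. Its row spans 2222 bp (chromosome 8, 64487578 to 64489800), while the RefSeq gene spans 25664 bp on GRCr8, so this level is that of a fragment and does not rank Pkm among the enzymes. Ldha, which reduces pyruvate to lactate, stood at 106 FPKM in KO and 109 FPKM in WT cells, where the authors' deposited table gave q = 0.997.

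Of the 13 measured enzymes, 6 were listed higher and 7 lower in KO cells, and none was called. Their median log2((KO + 1)/(WT + 1)), in FPKM, was −0.01, where all 10862 features with a mean of at least 1 FPKM had a median of −0.00316 and quartiles of −0.09 and 0.09. The summed FPKM of the 13 was 1982 in KO and 1949 in WT cells.

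Oxygen is sensed through HIF and its hydroxylases. Hif1a, the oxygen-regulated subunit, stood at 88.2 FPKM in KO and 91.0 FPKM in WT cells, where the authors' deposited table gave q = 0.997. Its protein is controlled mainly by degradation, which RNA levels do not show. Egln2, a prolyl hydroxylase not induced through HIF, stood at 29.8 FPKM in KO and 27.1 FPKM in WT cells. Egln3, a prolyl hydroxylase induced through HIF, stood at 7.62 FPKM in KO and 6.25 FPKM in WT cells, where the authors' deposited table gave p = 0.056 and q = 0.856. Egln3 had the highest ratio of KO to WT among the members and did not pass. Egln2 was the more abundant hydroxylase of the pair in both groups, 3.91-fold in KO and 4.34-fold in WT cells.

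The lowest ratio of KO to WT among the members was that of a transporter. Slc16a3 encodes MCT4, the monocarboxylate transporter that exports lactate from glycolytic cells (chromosome 10, 110143730 to 110148897). It fell to 6.73 FPKM in KO cells, against 16.1 FPKM in WT cells, which is 2.40-fold lower, at p = 5e-05 and q = 0.00756 by the authors' deposited table. That p is the smallest in the table and is shared by 175 tested rows, so it gives no rank. By size, 31 of the 10862 features with a mean of at least 1 FPKM, or 0.285%, had a log2 ratio at or below that of Slc16a3. Its row spans 5167 bp, while the RefSeq gene on GRCr8 spans 43841 bp, so this row may not cover every transcript of the gene.

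Slc16a1 encodes MCT1, the widely expressed transporter of lactate and pyruvate. It stood at 50.015 FPKM in KO and 58.5 FPKM in WT cells, where the authors' deposited table gave p = 0.0375 and q = 0.777. As read from these rows, Slc16a3 made up 11.9% of the summed FPKM of both transporters in KO cells and 21.6% in WT cells, and the sum was 56.7 FPKM in KO and 74.7 FPKM in WT cells. Slc2a1, the glucose transporter GLUT1, stood at 47.1 FPKM in KO and 53.6 FPKM in WT cells, where the authors' deposited table gave q = 0.944. All 3 transporters were listed lower in KO cells, and Slc16a3 alone passed the test.

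Vegfa, the angiogenic growth factor, lies on chromosome 9 (17340363 to 17355682). It fell to 20.5 FPKM in KO cells, against 27.6 FPKM in WT cells, 1.35-fold lower, at p = 0.00015 and q = 0.0187 by the authors' deposited table. Adm, the vasodilator peptide adrenomedullin, stood at 3.09 FPKM in KO and 3.72 FPKM in WT cells and did not pass, where the authors' deposited table gave q = 0.997. The Vegfa difference was smaller than that of Slc16a3, and it would not be called at q under 0.01. Of all features with a mean of 1 FPKM or more, 2.61% had a log2 ratio at or below that of Vegfa.

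Genes next to the called members were read for comparison. Around Slc16a3, the 5 nearest features with a mean of at least 1 FPKM on each side had log2 ratios between −0.08 and 0.06, and none of the 10 was called. The closest, Csnk1d, whose middle lies 20.5 kb away, stood at 82.4 FPKM in KO and 82.9 FPKM in WT cells. Around Vegfa, the 10 neighbours had log2 ratios between −0.19 and 0.18 and none was called.

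**Figure D2:**
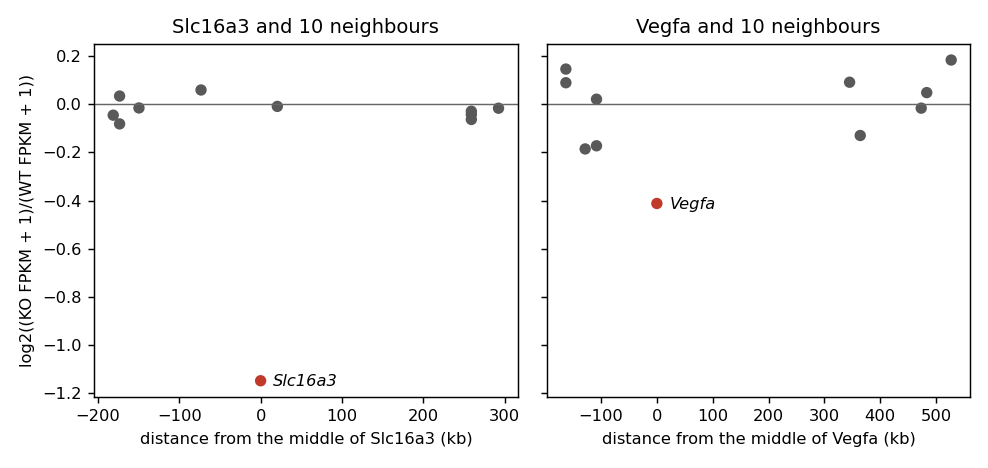
Log2((KO FPKM + 1)/(WT FPKM + 1)) of Slc16a3 (left) and Vegfa (right), in red, and of the 5 nearest features on each side, in grey, against the distance in kb between the middles of the loci. Both genes lie below all 10 of their neighbours; points with the same distance belong to rows that share a locus.

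The members that act on mitochondria did not pass. Pdk1, a kinase that shuts off pyruvate dehydrogenase, stood at 7.70 FPKM in KO and 8.11 FPKM in WT cells. Bnip3l, a receptor for mitophagy, stood at 26.2 FPKM in both KO and WT cells. Its relative Bnip3 stood at 4.69 FPKM in KO and 5.02 FPKM in WT cells. None passed, with the lowest p of the 3 at 0.54805 for Pdk1 in the authors' deposited table. For Bnip3 the fold in the authors' deposited table, −0.14 on the log2 scale, differs from the log2 ratio of its FPKM values, −0.0996; it is the only member for which these values differ by over 0.01.

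The remaining targets were likewise not called. Car9, the carbonic anhydrase widely used as a marker of hypoxia, was barely expressed, at 1.18 FPKM in KO and 0.977 FPKM in WT cells. The collagen prolyl hydroxylases P4ha1 (31.4 FPKM in KO, 34.5 FPKM in WT cells) and P4ha2 (34.4 FPKM in KO, 35.0 FPKM in WT cells) did not pass. Ddit4, an inhibitor of mTORC1, stood at 7.11 FPKM in KO and 8.77 FPKM in WT cells, with p = 0.0564 in the authors' deposited table. Ndrg1, a stress-induced gene, stood at 24.2 FPKM in KO and 27.1 FPKM in WT cells. Kdm3a, a histone H3 lysine demethylase, stood at 18.7 FPKM in KO and 21.8 FPKM in WT cells, with p = 0.0556 in the authors' deposited table. Mxi1, an antagonist of Myc, stood at 15.1 FPKM in KO and 15.9 FPKM in WT cells. Ddit4, Ndrg1, Kdm3a and Mxi1 were all listed lower in KO cells, and the smallest q among them was 0.854 in the authors' deposited table.

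The split of values around 0 was read for each class. Of the 16 measured HIF targets outside the enzymes, 14 were listed lower in KO cells and 2, Egln3 and Car9, higher, whereas the 13 enzymes split 7 lower and 6 higher. Over all features with a mean of at least 1 FPKM, 51.1% were listed lower in KO cells. The enzymes' split depends on scaling: with both groups scaled to the same FPKM sum, 12 of 13 enzymes (all but Aldoa), 14 of 16 other HIF targets and 83.3% of all features lay lower in KO cells. The lean of the HIF targets was not seen in the larger list of further HIF targets, of which 23 were listed lower and 20 higher in KO cells as deposited. The median log2 ratio was −0.14 for the HIF targets and −0.01 for the enzymes, and the enzymes' median minus that of the HIF targets was 0.14. The HIF targets held both calls, 12.5% of the class, and the enzymes held none, beside 1.93% of all features called. At that share a class of 13 genes can well hold none. Genes are not replicates, so no test of this difference over genes was made; the classes are described as they stand in this pair of pooled profiles. Each class held members that lay on the other side of 0. An earlier description of these data already gave the call of Vegfa, so it is not independent evidence.

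**Figure D3:**
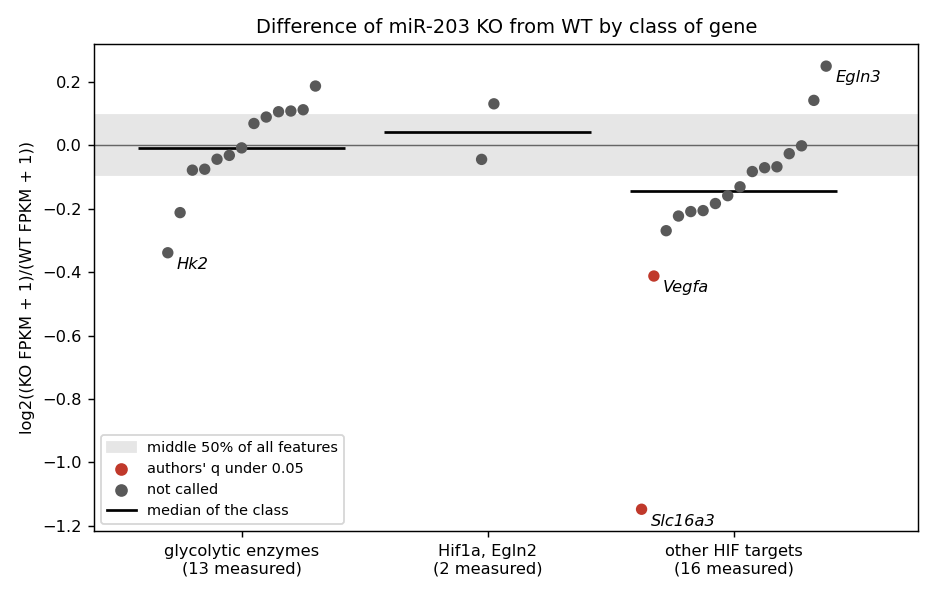
Log2((KO FPKM + 1)/(WT FPKM + 1)) of each measured member by class, with the class median as a black bar and the middle 50% of all 10862 features with a mean of at least 1 FPKM as a grey band. Slc16a3 and Vegfa, in red, are the called members; the class medians are −0.14 for the other HIF targets and −0.01 for the enzymes, and the band shows the spread of single features, not of medians.

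The core motif that HIF binds was searched as ACGTG or GCGTG on either strand in the 250 bases before the gene start, using the most upstream RefSeq start on GRCr8. Of the 36 members, 33 matched a promoter entry; Pgk1, Bnip3l and Ndrg1 had none. At least 1 match was found in 20 of the 33, or 60.6%, with 9 of 15 enzymes (60.0%) and 10 of 16 other HIF targets (62.5%). Among expressed features (mean of 1 FPKM or more) that had a promoter entry the share was 58.0%, and over all genes with an entry it was 37.8%. The 33 include members without a tested row. Of the measured members with an entry, 16 of 28, or 57.1%, held a match, which is close to the share of expressed features. Vegfa, Slc2a1 and Ldha are printed because they show a called target with no match and uncalled members with several. Uncalled measured members with no match were also found, among them Hk1, Hk2, Gpi and Kdm3a. The printed windows therefore do not show how matches relate to calls. Matches are in capitals.
Vegfa (chr9:22452604-22452853, plus strand): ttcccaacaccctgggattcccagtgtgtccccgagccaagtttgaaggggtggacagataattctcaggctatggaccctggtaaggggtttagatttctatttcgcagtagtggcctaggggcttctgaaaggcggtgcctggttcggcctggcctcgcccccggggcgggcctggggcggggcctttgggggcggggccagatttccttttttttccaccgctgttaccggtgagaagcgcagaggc
Slc2a1 (chr5:138002272-138002521, plus strand): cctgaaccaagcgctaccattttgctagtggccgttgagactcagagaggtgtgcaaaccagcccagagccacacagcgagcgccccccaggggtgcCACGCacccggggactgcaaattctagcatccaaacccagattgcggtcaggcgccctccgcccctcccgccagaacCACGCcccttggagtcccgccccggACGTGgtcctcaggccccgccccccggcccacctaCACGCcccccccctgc
Ldha (chr1:106507842-106508091, plus strand): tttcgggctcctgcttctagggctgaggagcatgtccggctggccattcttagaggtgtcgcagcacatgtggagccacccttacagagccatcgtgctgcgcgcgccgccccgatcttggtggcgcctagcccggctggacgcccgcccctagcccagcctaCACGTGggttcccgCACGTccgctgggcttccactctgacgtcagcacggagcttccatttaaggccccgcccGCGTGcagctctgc
Slc2a1 held 4 matches, from 153 to 16 bases before the start. Ldha also held 4, of which those at 87 and 86 bases before the start overlap as both strands of 1 palindrome. The window of Vegfa held none, which says only that these letters are absent from these 250 bases. The promoter entry of Slc16a3 also held no match. It is not printed, because the measured row spans much less than the RefSeq gene and which part it covers was not checked.

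Other genes of the pathway were read from 4 lists. These were chosen with earlier results of these data known, so their shares called are not independent of the calls. Among 18 measured of 36 other glycolytic and gluconeogenic genes, 1 fell, none rose and 17 did not pass. That 1 call was 5.56% of the list, beside 1.93% of all features called. The median log2 ratio was −0.03 over the 14 genes with a mean of at least 1 FPKM. Pck2, the mitochondrial phosphoenolpyruvate carboxykinase, fell to 6.26 FPKM in KO cells, against 8.68 FPKM in WT cells, where the authors' deposited table gave q = 0.0431. The most abundant were Bpgm, bisphosphoglycerate mutase (141 FPKM in KO, 138.5 FPKM in WT cells), Pgm1, phosphoglucomutase (22.6 FPKM in KO, 22.8 FPKM in WT cells), and G6pc3, a glucose 6-phosphatase (18.5 FPKM in KO, 18.3 FPKM in WT cells), none of which passed. The row of Bpgm spans 255020 bp, and whether other genes share in its level was not tested.

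For the entry of pyruvate into mitochondria, 12 of 14 genes were measured and none was called. At an unadjusted p under 0.05 there was 1, Pdp2, a phosphatase of pyruvate dehydrogenase (8.43 FPKM in KO, 10.7 FPKM in WT cells). Over all features 9.2% passed that level, and 1 of 12 is near that share. Genes of the other lists passed that level too. The median log2 ratio of the 12 genes was 0.07, with 10 listed higher and 2 lower. Pdhb, a subunit of pyruvate dehydrogenase, stood at 60.8 FPKM in KO and 60.7 FPKM in WT cells. Mpc2, a subunit of the pyruvate carrier, stood at 53.7 FPKM in KO and 50.2 FPKM in WT cells, and Dld, the E3 subunit, at 35.6 FPKM in KO and 33.7 FPKM in WT cells.

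Among 21 measured of 28 HIF regulators, 1 fell, none rose and 20 did not pass. That 1 call was 4.76% of the list, beside 1.93% of all features called. The median log2 ratio was −0.00636 over the 20 genes with a mean of at least 1 FPKM. Cited2, which competes with HIF for the coactivators CBP and p300 and is itself induced by HIF, fell to 7.22 FPKM in KO cells, against 12.4 FPKM in WT cells, 1.72-fold lower, at q = 0.00756 by the authors' deposited table. Among the most abundant, the chaperone Hsp90ab1 (360 FPKM in KO, 364 FPKM in WT cells) and the scaffold Rack1 (141 FPKM in KO, 143 FPKM in WT cells) did not pass.

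The list of further HIF targets held more calls. Of 68 genes, 46 were measured, 5 fell, 2 rose and 39 did not pass, so that 15.2% were called beside 1.93% of all features. The list was chosen with earlier results of these data known, so that share is not independent of the calls. The median log2 ratio was −0.01 over the 43 with a mean of at least 1 FPKM, 23 of which (53.5%) were listed lower in KO cells. Plod1, a collagen lysyl hydroxylase, fell to 1.18 FPKM in KO cells, against 2.62 FPKM in WT cells. Bhlhe40, a transcriptional repressor of the clock, fell to 13.6 FPKM in KO cells, against 20.3 FPKM in WT cells. The authors' deposited table gave q = 0.00756 to both Plod1 and Bhlhe40. Hmox1, haem oxygenase (44.2 FPKM in KO, 59.3 FPKM in WT cells), and Tgfa, a ligand of the EGF receptor (30.2 FPKM in KO, 40.9 FPKM in WT cells), fell, and the authors' deposited table gave q = 0.0310 to each.

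The calls in this list ran in both directions. Car12, a membrane carbonic anhydrase, rose to 2.65 FPKM in KO cells, against 1.46 FPKM in WT cells, 1.82-fold, at q = 0.00756 by the authors' deposited table. Jun, an AP-1 subunit, rose to 34.6 FPKM in KO cells, against 24.6 FPKM in WT cells, where the authors' deposited table gave q = 0.0137. As background, some of these genes also answer to other pathways, such as NRF2 for Hmox1 and growth factor signalling for Jun. The most abundant genes, Anxa2, annexin A2 (760 FPKM in KO, 764 FPKM in WT cells), Tfrc, the transferrin receptor (282 FPKM in KO, 354 FPKM in WT cells), and Lgals3, galectin-3 (223 FPKM in KO, 207 FPKM in WT cells), did not pass.

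**Figure D4:**
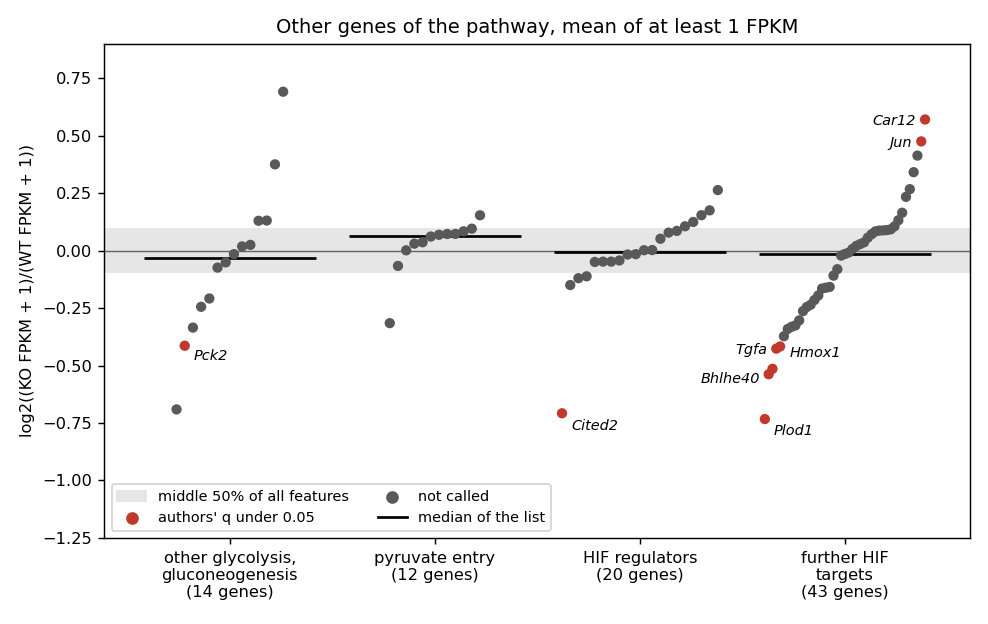
Log2((KO FPKM + 1)/(WT FPKM + 1)) of other genes of the pathway with a mean of at least 1 FPKM, by list, with list medians as black bars and the middle 50% of all features as a grey band; calls at q under 0.05 are red, and 8 of the 9 are named. The 4 medians run from −0.03 to 0.07, the band shows the spread of single features, and the 9 calls are 7 decreases and 2 increases.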

How the data were processed

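Per the submitters' processing notes, the authors used TopHat (listed as version 0.9), Cufflinks 2.2.1 and Cuffdiff 2.2.1.3 on the rn6 build; the annotation and the options set were not given in the sources used here. Per the file headers, the authors deposited 1 FPKM value per row and group, the log2 fold of KO over WT, a test statistic (a score), the p-value and the q-value. FPKM keeps no read depth, so precision per sample is unknown. The p-values test the difference between the groups against a spread between samples modelled by Cuffdiff. How that spread was estimated is unknown, since the options were not given. Decimal commas were converted. Recomputing q by Benjamini-Hochberg over the 26459 tested rows (of 26751) gave the deposited values.

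Here 1 row per symbol was taken, the longest locus, with ties going to the highest mean FPKM. Medians use a pseudocount of 1 FPKM, which understates changes of low genes, and features whose mean over both groups is 1 FPKM or more. The design had foreseen limma if values per sample were present; without them no test was run. Members, lists and the rule for named genes (all members; of each list, its calls and its 3 most abundant genes; epithelial markers, and other markers above 1 FPKM) were chosen with earlier results of these data known; Pdp2, Csnk1d and Aldoart2 were named after their values were seen. Of the genes this rule names, 2 are not reported here. Among muscle markers, Myh11 stood at 2.80 FPKM in KO and 1.20 FPKM in WT cells and Acta2 at 1.52 FPKM in KO and 1.05 FPKM in WT cells. The median calculation was tested on simulated data. Python 3.11.15, pandas 2.3.3, NumPy 2.4.6 and matplotlib 3.10.9 were used.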

Additional observations from a re-analysis of the deposited data

How the results depend on the processing

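A median was taken as moved where it shifted by over 0.05 on the log2 scale, since no spread between replicates is given. The difference between the class medians, 0.137 in the main setting, stayed positive under all 15 alternatives, from 0.0987 to 0.175. The lowest value, 0.0987, came from leaving out the 2 called members, which took the median of the other HIF targets to −0.11. Setting the enzymes against all 20 members that are not enzymes gave the same value. All 15 reuse the same pair of pooled profiles, so their number is no measure of reproducibility. Setting the median of all features to 0 shifts both classes alike and could not change the difference. Lifting the limit of 1 FPKM could not either, since all 31 members reached it. The difference also stayed at 0.137 with each symbol's most abundant row, which for every member was the row already used. Leaving out Pfkfb3 and Ldha took 1 enzyme from each side of the enzymes' median, so the difference again stayed at 0.137. Neither of these settings could have changed the difference. With both groups scaled to the same FPKM sum, all features moved to a median of −0.15, the enzymes to −0.17 and the other HIF targets to −0.30, and 12 of 13 enzymes, against 7 as deposited, lay lower in KO cells. Without the 6 members whose row is much shorter than the RefSeq gene, the medians were 0.0793 for enzymes and −0.0826 for the other HIF targets, and 1 member, Vegfa, remained called. At q under 0.01, 1 member (Slc16a3) and 5 of the 9 other pathway genes were called, by construction of the stricter threshold. Breaking ties of equal loci by file order took Hk2, the lowest enzyme, below the limit of 1 FPKM and turned the median of the 12 enzymes left to 0.03. That alternative, the authors' fold column, and leaving out short rows or the 2 called members were chosen after seeing the data. The log2 ratio of Slc16a3 lay between −1.30 and −1.15 and that of Vegfa between −0.57 and −0.41 over 11 alternatives each. No paired analysis was possible because each group has 1 pooled value; for the same reason leaving out each replicate and limma were not run.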
